A study of Sus scrofa with 21 samples.

Results

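Small leucine-rich proteoglycans (SLRPs) are secreted proteins of the extracellular matrix, and 5 of them were followed here in the pig heart after myocardial infarction (MI): decorin (DCN), biglycan (BGN), lumican (LUM), fibromodulin (FMOD) and keratocan (KERA). The members were taken by gene symbol, as 5 of the 7516 genes named on the array. The platform's annotation gave DCN, BGN and LUM, and the authors' own match to human genes gave FMOD and KERA. Together they had 6 probe sets of the 24123 on the array, and 5 of these 6, 1 per gene, were among the 12180 that passed the filter of a log2 value above 3 in at least 10 arrays. The probe set left out was a second one for DCN, which stayed between 0.14 and 0.63 on all 21 arrays.

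The cores of these proteins carry repeats rich in leucine, and many of them bind the surface of collagen fibrils, where they regulate how fibrils assemble and how thick they grow. Decorin and biglycan bear chondroitin or dermatan sulfate chains, whereas lumican, fibromodulin and keratocan can bear keratan sulfate. Several SLRPs also bind growth factors such as TGF-beta, and biglycan and decorin can act on Toll-like receptors. In the heart they are known mainly as products of fibroblasts, and keratocan is best known from the cornea.

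All animals were female Landrace x Large White crossbreed pigs of 30 to 40 kg. MI was made in 9 pigs by permanently tying off a marginal branch of their circumflex artery, and 3 pigs were studied at each of 1, 4 and 6 weeks (6, 30 and 45 days per the labels). From each of these pigs an infarct core (IC) sample from the middle of the left ventricular scar and a remote myocardium (RM) sample from the septum were hybridized, so that IC and RM of a pig are paired. Control myocardium (CM) came from 3 pigs at day 0 without MI, which the labels describe as sham-operated and the methods as healthy. Each of the 7 groups had 3 arrays, 1 per pig, and every comparison with CM shares the same 3 control arrays. The septum and the free wall are different regions, and this cannot be told apart from the distance to the infarct. The methods do not state the region of the control samples. Since controls were at day 0 and the other pigs at 6, 30 or 45 days, MI and the days passed cannot be told apart against CM.

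On all arrays the cardiomyocyte markers were high, also in IC, where MYH7 (ventricular myosin heavy chain) read 12.11 to 13.00 against 12.80 to 12.98 in CM. The mean of 15 cardiomyocyte markers was 11.60 to 11.68 in CM and 10.08 to 11.39 in IC. The median log2 difference of these 15 from CM was -0.87, -1.21 and -0.36 in IC at 1, 4 and 6 weeks. MYH7 changed less, by -0.17, -0.30 and 0.02. The mean of 11 fibroblast markers was 5.07 to 5.77 in CM and 7.49 to 8.39 in IC, and that of 8 macrophage markers 4.92 to 5.09 in CM and 6.25 to 7.95 in IC. The control of pig 33 stood apart with a fibroblast mean of 5.77, where the other two controls were at 5.07 and 5.12. All values below are log2 RMA values of whole tissue, in which more cells of a type and more RNA per cell cannot be told apart. They compare a probe set with itself across samples, and levels of different genes are not set against each other.

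All 5 SLRPs were higher in the infarct core than in the controls at each of the 3 stages, and none was called in the remote myocardium at any stage, where 0.509%, 0.616% and 0.0739% of all probe sets were called higher. In IC the increase over CM was smallest for DCN, at 2.86-fold to 4.01-fold, and largest for FMOD, at 58.1-fold to 115-fold. With the limma fit across all 12180 probe sets, an adjusted p under 0.05 was called, and 5 of 5 members were called higher in IC at 1 week, 5 of 5 at 4 weeks and 5 of 5 at 6 weeks. Over all probe sets tested, 26.0%, 25.3% and 21.0% were called higher in these comparisons. Averaged over the 3 stages, 5 of 5 members were called higher in IC, where 27.5% of all probe sets were. FMOD and KERA owe their names to tables that list called probe sets. Of the tested probe sets named in that way, 98.8% were called in IC at some stage, as against 71.6% of those named by the platform, and KERA had to differ from CM to pass the filter, so the count that does not depend on this is 3 of 3, for DCN, BGN and LUM.

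**Figure D1:**
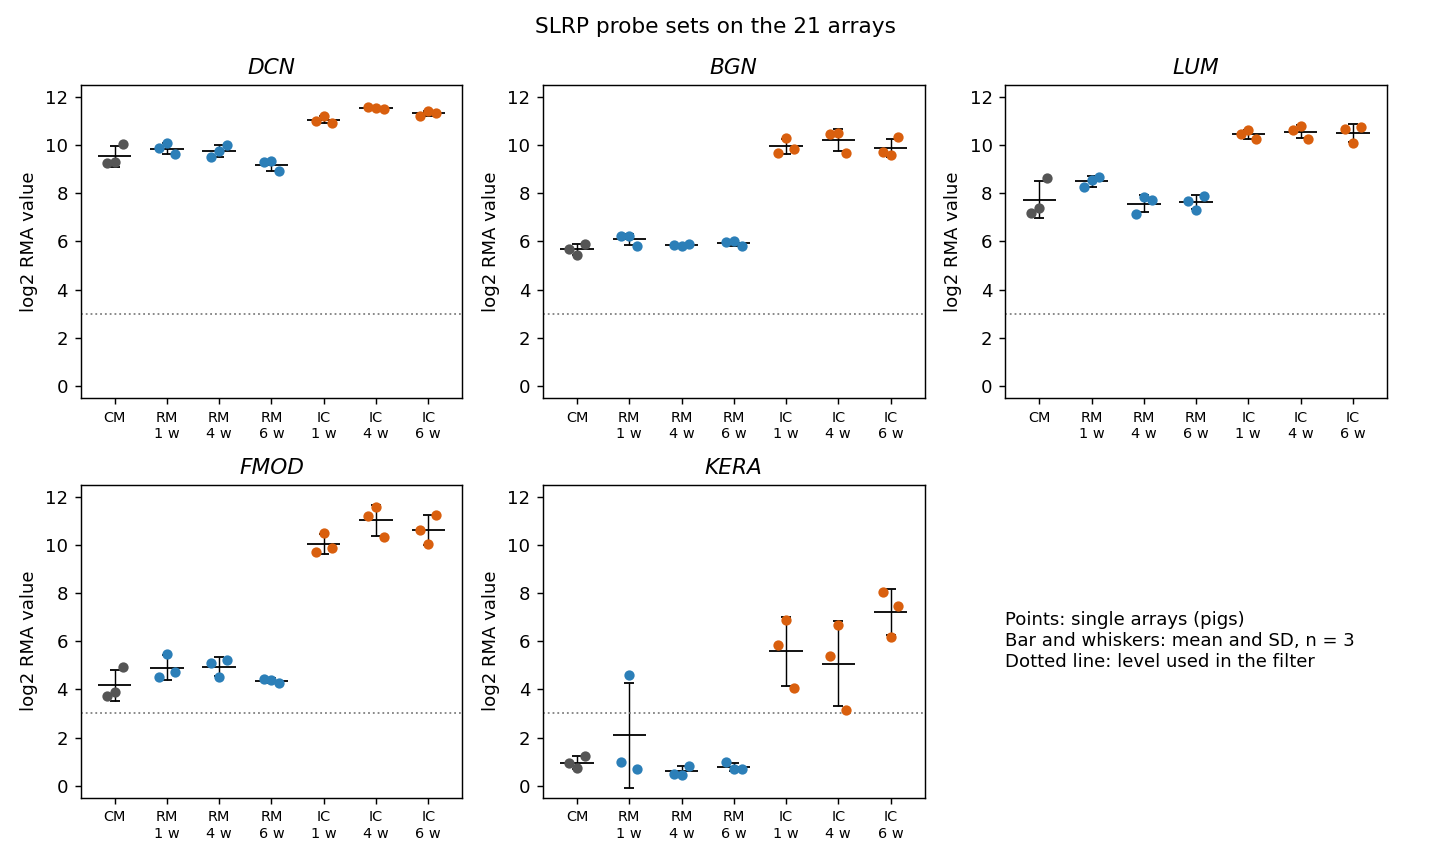
Log2 RMA value (y axis) of the 5 tested SLRP probe sets in control myocardium (CM), remote myocardium (RM) and infarct core (IC) at 1, 4 and 6 weeks (x axis). Points are arrays, bars and whiskers the mean and SD of 3 arrays, and the dotted line marks the filter level of 3. In every panel all IC points lie above all CM points, and KERA has a single RM array, of pig 8 at 1 week, at 4.60. How many of all probe sets were separated in this way was not counted.

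DCN, which binds collagen I and sequesters TGF-beta, was abundant in every sample. Its values in CM were 9.24, 9.31 and 10.04 for pigs 30, 31 and 33. In IC they were 10.99, 11.21 and 10.94 at 1 week (pigs 7, 8 and 9), 11.57, 11.56 and 11.48 at 4 weeks (pigs 18, 20 and 22) and 11.20, 11.42 and 11.33 at 6 weeks (pigs 2, 3 and 5). The lowest IC array was thus above the highest control. The log2 difference of IC from CM was 1.52 ± 0.19 (SE) at 1 week, 2.01 ± 0.19 at 4 weeks and 1.79 ± 0.19 at 6 weeks, with adjusted p = 3.88e-06, 1.61e-07 and 1.52e-06.

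BGN, the closest relative of decorin and like it a carrier of chondroitin or dermatan sulfate, separated the regions by a wider margin. It read 5.68, 5.43 and 5.91 in CM. In IC it read 9.69, 10.31 and 9.86 at 1 week, 10.48, 10.49 and 9.69 at 4 weeks and 9.73, 9.61 and 10.32 at 6 weeks. No IC array came near the controls. The log2 differences of 4.28, 4.55 and 4.21 (SE 0.23 each) correspond to 19.4-fold, 23.4-fold and 18.6-fold, with adjusted p = 4.5e-10, 3.95e-10 and 1.11e-09.

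LUM, a keratan sulfate proteoglycan that regulates fibril diameter, had the widest spread among controls of the members named by the platform, at 7.20, 7.38 and 8.62. In IC its values were 10.46, 10.63 and 10.24 at 1 week, 10.64, 10.80 and 10.25 at 4 weeks and 10.65, 10.09 and 10.76 at 6 weeks. Even the high control of pig 33 was below every IC array. The log2 difference was 2.71 ± 0.30, 2.83 ± 0.30 and 2.77 ± 0.30 (SE) at the 3 stages (adjusted p = 9.08e-07, 5.25e-07 and 1.7e-06), so the stages of IC lay within 0.13 of each other.

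FMOD, which competes with lumican for sites on collagen I and takes part in its crosslinking, was not far above the filter level of 3 in CM, at 3.73, 3.89 and 4.91. In IC it reached 9.72, 10.51 and 9.89 at 1 week, 11.22, 11.56 and 10.31 at 4 weeks and 10.62, 10.02 and 11.25 at 6 weeks. Every IC array was above every control. The log2 difference from CM was 5.86 ± 0.37, 6.85 ± 0.37 and 6.45 ± 0.37 (SE), with adjusted p = 3.99e-09, 6.36e-10 and 2.24e-09. By size of the difference FMOD was at rank 12 of 12180 at 1 week, at rank 4 at 4 weeks and at rank 1 at 6 weeks.

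KERA, a keratan sulfate proteoglycan needed for the order of corneal collagen, was at 0.93, 0.72 and 1.23 in CM, below the filter level of 3. In IC its values were 5.84, 6.87 and 4.05 at 1 week, 5.38, 6.66 and 3.16 at 4 weeks and 8.06, 6.18 and 7.45 at 6 weeks. The IC arrays were all above 3 but spread over a wide range, and at 6 weeks none was below 6.18. It passed the filter only through the 9 IC arrays and 1 RM array, so it had to differ, and its control level is too low for an exact size of the difference. The fitted log2 differences were 4.63, 4.11 and 6.27 (SE 0.91 each), with adjusted p = 0.000336, 0.00096 and 3.19e-05.

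Within some groups the members tended to be high or low on the same array. At 1 week the IC array of pig 8 was the highest of its group for 5 of 5 members, and at 4 weeks the IC array of pig 22 was the lowest for 5 of 5. Among controls pig 33 was the highest for 5 of 5. At 6 weeks the IC array of pig 5 was the highest for 3 of 5, and that of pig 3 the lowest for 4 of 5. In RM the arrays of pig 8 at 1 week and pig 22 at 4 weeks were the highest for 4 of 5 each. The RM arrays of pigs 2 and 3 at 6 weeks were the highest for 2 of 5 each. The IC array of pig 22 at 4 weeks also had the lowest cardiomyocyte mean of all arrays, at 10.08, and the highest macrophage mean, at 7.95, while its fibroblast mean of 8.31 was between those of the other two arrays of its group (8.28 and 8.39). The part of these markers in the SLRP values was not tested. With 3 arrays a group this is a description.

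**Figure D2:**
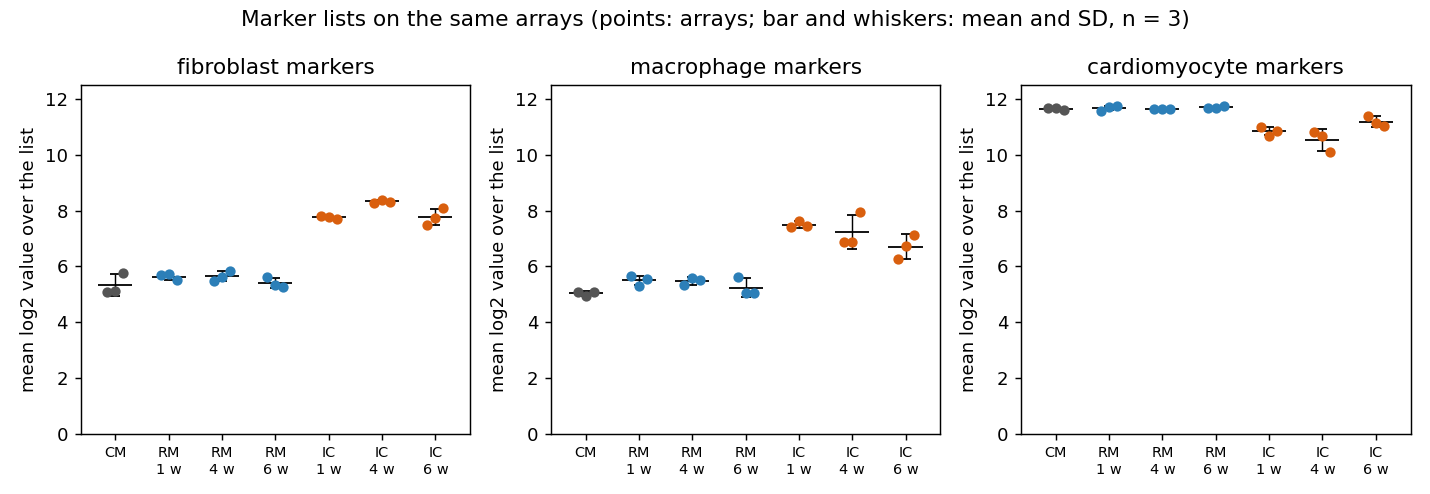
Mean log2 value (y axis) over 11 fibroblast, 8 macrophage and 15 cardiomyocyte markers in the 7 groups (x axis). Points are arrays, bars and whiskers the mean and SD of 3 arrays. The fibroblast and macrophage means of all 9 IC arrays lie above those of all CM arrays, and the cardiomyocyte means lie below.

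In the remote myocardium the question is whether the non-infarcted septum also changed. Of the 5 members, 0 were called there by limma at 1, 4 or 6 weeks, where 0.509%, 0.616% and 0.0739% of all probe sets were called higher. At an unadjusted p under 0.05 the count was 1 at 1 week, 0 at 4 weeks and 0 at 6 weeks. The share of all probe sets at that unadjusted threshold was not counted. Averaged over the 3 stages 0 of 5 were called in RM, where 0.378% of all probe sets were called higher, and 0 of 5 had an unadjusted p under 0.05. LUM at 1 week was the single member. Its RM values at 1 week were 8.25, 8.57 and 8.67, against 7.16, 7.83 and 7.74 at 4 weeks and 7.69, 7.31 and 7.90 at 6 weeks. The arrays of 1 week were above those of both later stages and above 2 of the 3 controls, but the third control was at 8.62. The log2 difference from CM at 1 week was 0.76 (95% interval 0.13 to 1.39, adjusted p = 0.247). Without the control of pig 33 it was 1.21 ± 0.25 (SE) with adjusted p = 0.0308, and LUM was then called in RM, where 47 probe sets (0.386%) were called higher.

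The other members differed less between RM and CM, or less clearly. DCN in RM was 9.87, 10.07 and 9.64 at 1 week and 9.28, 9.33 and 8.91 at 6 weeks, and its lowest array at 4 weeks was at 9.49. The arrays of 6 weeks lay below all RM arrays of the earlier stages, and overlapped with CM. The log2 difference from CM was 0.33 (95% interval -0.07 to 0.73) at 1 week and -0.36 (-0.76 to 0.05) at 6 weeks, and 0.59 and -0.10 without the control of pig 33. BGN in RM ranged from 5.80 to 6.24 over the 9 arrays, and its differences from CM were 0.41, 0.18 and 0.26 with intervals that reached from -0.29 to 0.88 over the 3 stages, and 0.52, 0.30 and 0.37 without that control. FMOD in RM ranged from 4.25 to 5.48, with differences of 0.73 (95% interval -0.06 to 1.51) at 1 week and 0.76 (-0.03 to 1.55) at 4 weeks, which were 1.09 and 1.13 without that control. None of these was called with or without it.

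KERA in RM was below 1 on 8 of the 9 arrays, and at 4.60 on the array of pig 8 at 1 week. That pig also had the highest KERA value in IC at 1 week, 6.87. The log2 difference of RM from CM at 1 week was 1.13 (95% interval -0.78 to 3.04) and became -0.13 without that array. On the same RM array FMOD was at 5.48, the highest of the RM arrays, and DCN at 10.07, also the highest.

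**Figure D3:**
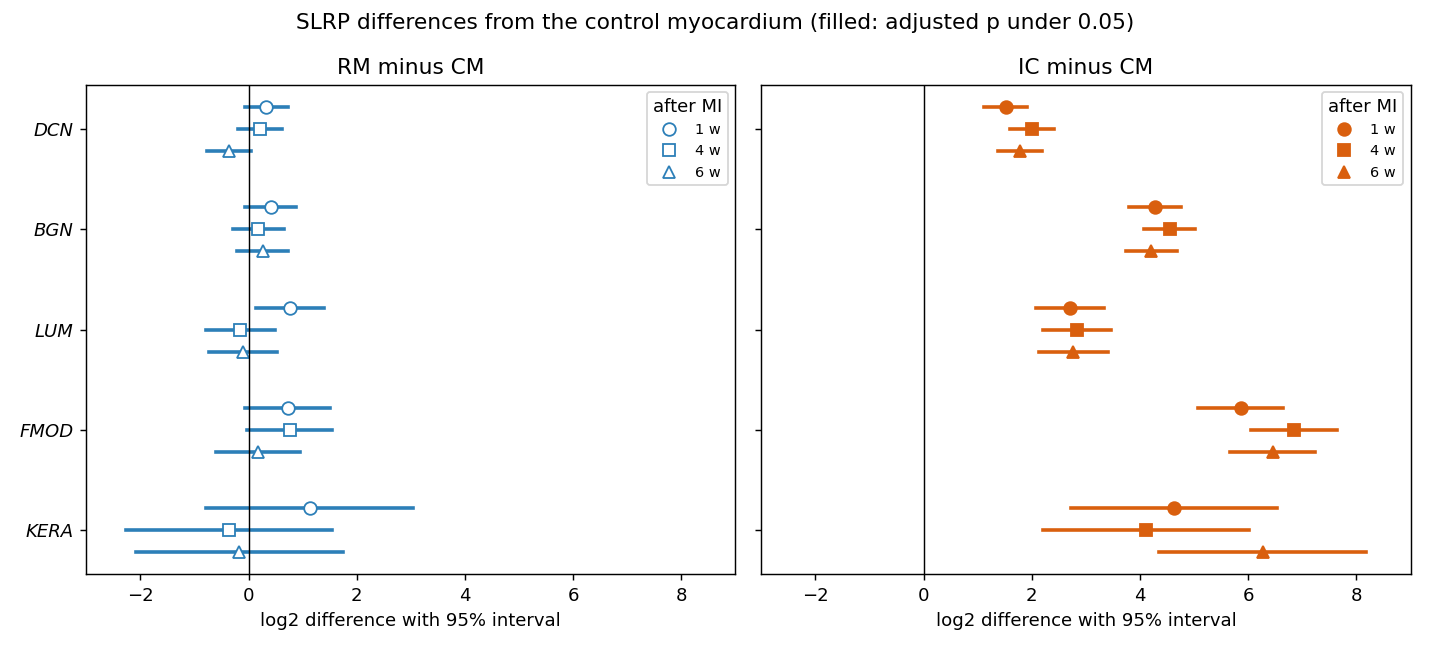
Log2 difference from control myocardium (x axis) of the 5 SLRPs (y axis) in remote myocardium (left) and infarct core (right), with the 95% interval of the limma fit and filled symbols for an adjusted p under 0.05. All 15 differences are filled and above 0 in IC, and none is filled in RM.

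Since RM and IC of a pig are paired, the difference between them was also read within each animal. Each member was higher in IC in 9 of 9 pigs, a count that was not taken over all probe sets. All 5 members were called higher in IC than in the RM of the same pigs at 1, 4 and 6 weeks. That was 5 of 5 each time, where 24.7%, 25.5% and 22.6% of all probe sets were called higher. For KERA, which passed the filter only through the 9 IC arrays and 1 RM array, this call was fixed by the filter, and FMOD was named from tables of called probe sets, so here too the count free of both is 3 of 3. For DCN the log2 difference IC minus RM was 1.12, 1.13 and 1.30 in the pigs of 1 week, 2.07, 1.81 and 1.48 in those of 4 weeks and 1.91, 2.09 and 2.42 in those of 6 weeks. Every pig of a later stage was above every pig of 1 week. The fitted differences were 1.19 ± 0.15, 1.79 ± 0.15 and 2.14 ± 0.15 (SE), with adjusted p = 0.000114, 1.05e-05 and 6.96e-06.

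LUM followed a similar course. Its differences within pigs were 2.20, 2.06 and 1.57 at 1 week, 3.48, 2.97 and 2.50 at 4 weeks and 2.97, 2.78 and 2.85 at 6 weeks. Again all pigs of the later stages were above those of 1 week. The IC values of LUM were close at the 3 stages, and its RM values were higher at 1 week than later.

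FMOD was tight at 1 week, with differences of 5.22, 5.03 and 5.15, and wider at 4 weeks, with 6.12, 7.06 and 5.08. At 6 weeks they were 6.20, 5.61 and 7.01. The fitted differences were 5.13, 6.09 and 6.27 (SE 0.33 each). BGN gave 3.87, 4.37 and 3.96 (SE 0.23 each), and its pigs overlapped across all stages. KERA gave 3.50, 4.47 and 6.44 (SE 0.65 each), against RM values below 1 on 8 of 9 arrays, so that these sizes are not exact. At 1 week the arrays of the 2 regions overlapped for KERA, since RM of pig 8 (4.60) was above IC of pig 9 (4.05), and this was the only overlap between IC and RM of a stage for the 5 members. The share of all probe sets without such an overlap was not counted.

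**Figure D4:**
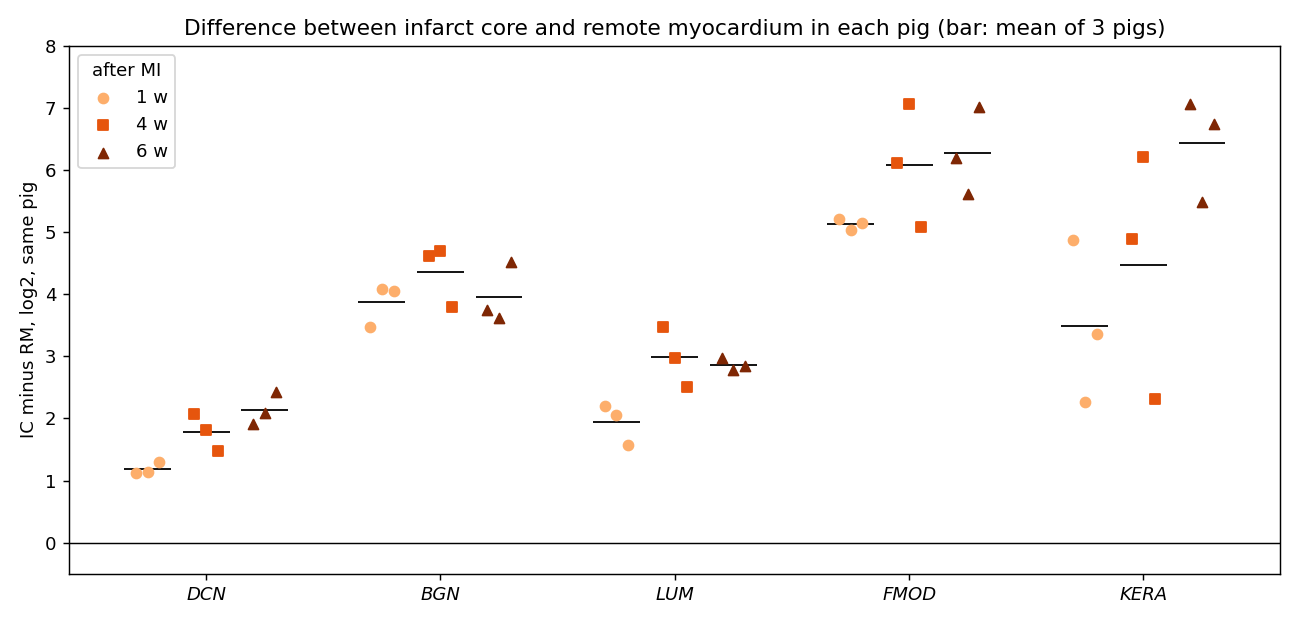
Log2 difference between infarct core and remote myocardium of the same pig (y axis) for the 5 SLRPs (x axis) at 1, 4 and 6 weeks. Each point is a pig and each bar the mean of 3 pigs. All 45 points are above 0, and for DCN and LUM the pigs of 4 and 6 weeks lie above those of 1 week.

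Whether this difference changed with time was tested directly. None of the 5 members was called by limma, where 0.0657% of all probe sets were called in either direction between 4 weeks and 1 week, 0.32% between 6 weeks and 1 week and 0 between 6 and 4 weeks. At an unadjusted p under 0.05 the counts were 2, 4 and 0. The share of all probe sets at that threshold was not counted, so these counts have nothing to be set against. For DCN the estimated change from 1 to 6 weeks was 0.96 (95% interval 0.49 to 1.42, adjusted p = 0.0877), and for LUM it was 0.92 (0.34 to 1.51, adjusted p = 0.158). LUM at 4 weeks was 1.04 above 1 week (0.46 to 1.63, adjusted p = 0.172). The estimate for FMOD from 1 to 6 weeks was 1.14 (0.11 to 2.17, adjusted p = 0.293). That for KERA was 2.94 (0.90 to 4.98, adjusted p = 0.191) and 2.32 without the RM array of pig 8, but it rests on RM values under the filter level, and its size is not exact. With array weights 4 calls were made, for DCN, LUM and KERA between 6 weeks and 1 week (adjusted p = 0.0149, 0.025 and 0.0378) and LUM between 4 weeks and 1 week (adjusted p = 0.0428).

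Stage was likewise compared with stage within each region. In IC 0 of 5 members were called between any 2 stages, where 11.9% of probe sets were called between 4 weeks and 1 week, 15.7% between 6 weeks and 1 week and 3.88% between 6 and 4 weeks. At an unadjusted p under 0.05 the counts were 2, 0 and 1, again without a share of all probe sets. The estimate for DCN from 1 to 4 weeks was 0.49 (95% interval 0.09 to 0.89, adjusted p = 0.102), and all its IC arrays of 4 weeks were above those of 1 and of 6 weeks. That for FMOD was 0.99 (0.20 to 1.78, adjusted p = 0.0913), and without the IC array of pig 22, its lowest at 4 weeks, the estimate was 1.35 with adjusted p = 0.0384. DCN was likewise called without the control of pig 33 (0.49, adjusted p = 0.0497), which does not enter the contrast but the shared spread. The estimate for KERA from 4 to 6 weeks was 2.16 (0.26 to 4.07, adjusted p = 0.192). Array weights gave 3 calls, for DCN, BGN and FMOD between 4 weeks and 1 week (adjusted p = 0.0219, 0.0474 and 0.00953).

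In RM 0 of 5 members were called between stages, where 1.59%, 0.181% and 0.632% of probe sets were called between 4 weeks and 1 week, 6 weeks and 1 week, and 6 and 4 weeks. The counts at an unadjusted p under 0.05 were 1, 2 and 1, again without a share of all probe sets. DCN was at -0.69 (95% interval -1.09 to -0.28, adjusted p = 0.124) at 6 weeks against 1 week, and LUM at -0.92 (-1.55 to -0.28, adjusted p = 0.115) at 4 weeks against 1 week. With array weights that LUM difference was -0.81 and was called (adjusted p = 0.043).

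DCN, LUM and KERA lie next to each other in the pig genome (Sscrofa11.1 gene order), followed by EPYC, for which no probe set is named. FMOD is followed by PRELP and OPTC, while BGN lies apart from the other members. A list of 12 further genes of the SLRP family gave 5 with a tested probe set: ASPN, PRELP and TSKU by the platform's names, and OGN and ECM2 by the authors' match. All 5 were called higher in IC than in CM at each stage (26.0%, 25.3% and 21.0% of all probe sets), and higher in IC than in the paired RM at each stage (24.7%, 25.5% and 22.6%). OGN and ECM2 are among the names of which 98.8% were called in IC, so the count free of this is 3 of 3. For the 3 named by the platform the median log2 difference of IC from CM was 2.74, 2.39 and 2.40, where the median of all tested probe sets was -0.06, -0.06 and -0.08.

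PRELP, a basement membrane and collagen anchor and the neighbour of FMOD, was 6.05, 5.53 and 6.34 in CM and 8.92, 9.78 and 8.87 in IC at 1 week. At 4 weeks it was 10.61, 10.88 and 9.44 in IC. Its log2 differences from CM were 3.21, 4.34 and 3.86 (SE 0.35 each). PRELP was the only tested gene of the family called between stages of IC, at 1.13 (adjusted p = 0.042) from 1 to 4 weeks, and the call was lost under 3 other settings (adjusted p = 0.0528 without a filter, 0.0733 with ribosomal protein genes for centring and 0.14 with only the groups compared), at a threshold of 0.01, and without the IC arrays of pigs 7, 9, 18 or 20 or the RM arrays of pigs 20 or 22 (adjusted p up to 0.16).

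OGN (osteoglycin) rose by 3.31, 3.44 and 3.65 over CM (SE 0.30 each) and was close to LUM in RM at 1 week, at 0.73 above CM (adjusted p = 0.272). Its controls were at 6.28, 6.40 and 7.76, the highest again being pig 33, and without that control OGN in RM at 1 week was at 1.20 with adjusted p = 0.0239. ASPN (asporin, which binds collagen and TGF-beta) was higher in IC by 2.74, 2.39 and 2.40 (SE 0.25 each). In RM at 6 weeks ASPN was 9.11, 9.22 and 9.34 against 8.26, 8.28 and 8.91 in CM, so that these arrays did not overlap. PRELP and ECM2 in RM at 4 weeks were likewise above all CM arrays. Their lowest values there were 6.54 and 8.29, against highest controls of 6.34 and 8.28. How many of all probe sets were without overlap was not counted, and the ASPN difference of 0.74 was not called (adjusted p = 0.221). Nor were those of PRELP at 0.62 (adjusted p = 0.384) and ECM2 at 0.12 (adjusted p = 0.832). TSKU (tsukushi) rose by 1.95, 2.00 and 1.59 (SE 0.30 each). ECM2 rose by 1.43, 1.26 and 1.32 (SE 0.23 each). OPTC (opticin, an SLRP of the eye) stayed between 0.61 and 1.32 on all arrays.

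**Figure D5:**
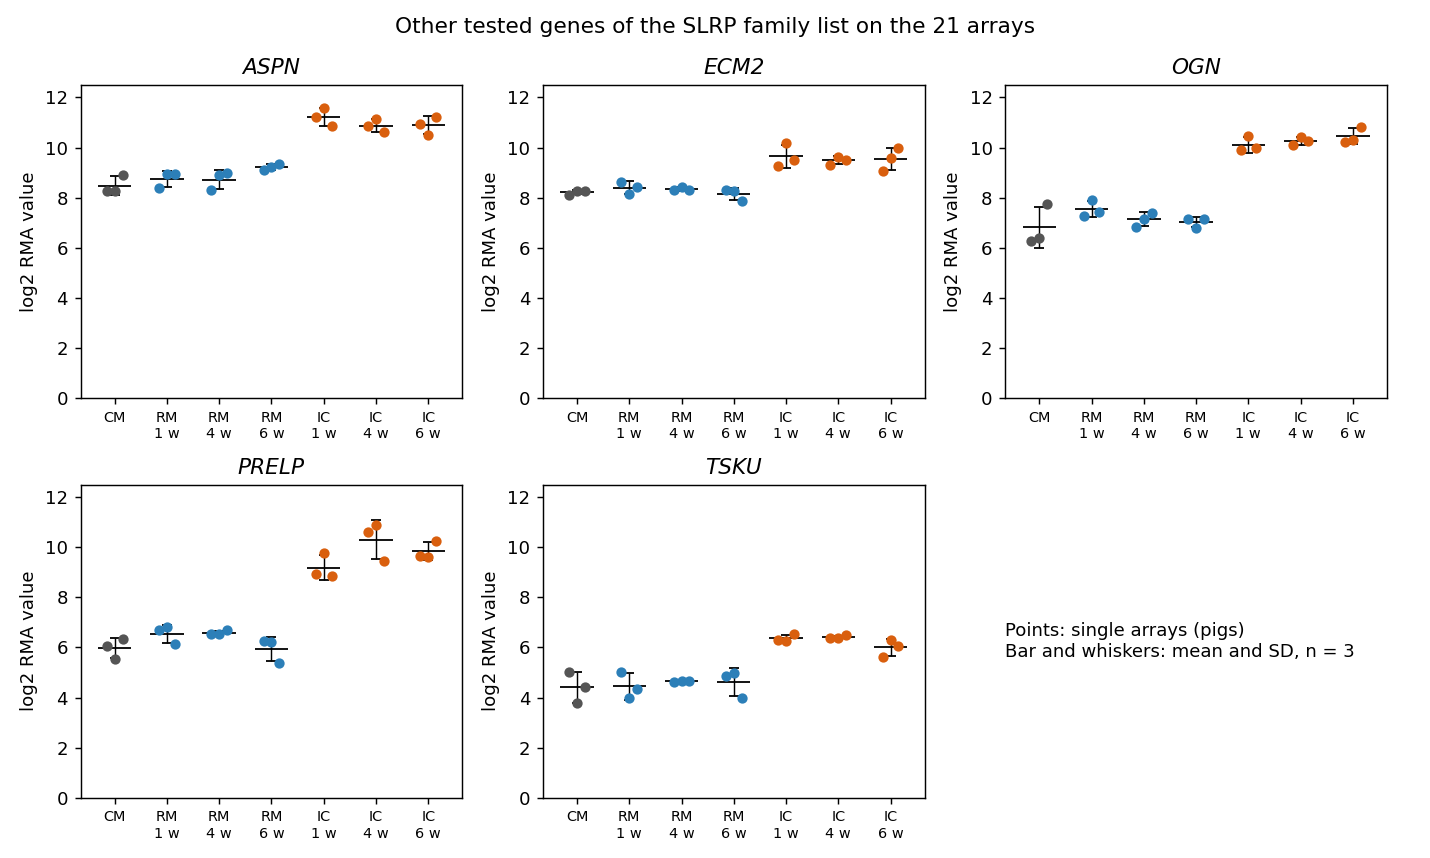
Log2 RMA value (y axis) of the 5 further SLRP family genes tested, in the 7 groups (x axis). Points are arrays, bars and whiskers the mean and SD of 3 arrays. Each gene has its IC arrays above all CM arrays, and the gap from the highest CM array to the lowest IC array of a stage runs from 0.59 log2 units for TSKU at 6 weeks to 3.27 for PRELP at 6 weeks. How many of all probe sets had such a gap was not counted.

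Genes that make the glycosaminoglycan chains of proteoglycans also rose in IC. Of 31 listed, 9 had a tested probe set under the platform's names. At each stage 7 of the 9 were called higher (26.0%, 25.3% and 21.0% of all probe sets) and none lower (28.2%, 29.1% and 26.0%). The median log2 difference of the 9 was 1.33, 1.36 and 1.37. DSE, the epimerase that turns chondroitin into dermatan sulfate, rose by 3.39, 2.85 and 2.45 log2 units (SE 0.26 each). CHSY1, a chondroitin sulfate synthase, rose by 2.63, 2.00 and 1.54 (SE 0.19 each), and in RM at 1 week by 0.78 (adjusted p = 0.0497). That was the only call of this list in RM, where 0.509%, 0.616% and 0.0739% of all probe sets were called higher. In IC B4GALT1, a galactosyltransferase, rose by 1.79, 1.96 and 1.41, and PAPSS1, which makes the sulfate donor, by 2.33, 2.18 and 1.50.

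Among collagens and enzymes that process them, 8, 9 and 9 of 10 tested genes were called higher in IC at 1, 4 and 6 weeks. Of all probe sets 26.0%, 25.3% and 21.0% were called higher. None of the 10 was called lower (28.2%, 29.1% and 26.0% of all probe sets), and their median was 1.97, 2.46 and 1.91. LOXL1, a crosslinking lysyl oxidase, rose by 5.02, 5.42 and 4.74 log2 units (SE 0.51 each). LOX rose by 2.74, 3.82 and 2.57 (SE 0.58 each). COL5A1, a regulator of fibril diameter, rose by 3.25, 3.20 and 3.04 and COL6A3 by 2.44, 2.82 and 2.56. The platform's COL3A1 probe set was at -0.46, 0.02 and 0.08 and was not called, while a COL3A1 probe set by the authors' match read 10.38 to 11.44 in CM and 12.57 to 12.87 in IC.

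Of the ligands and receptors that SLRPs bind, 11 of 31 were tested. In IC 8, 8 and 6 were called higher (26.0%, 25.3% and 21.0% of all probe sets) and 2, 2 and 3 lower (28.2%, 29.1% and 26.0%). TGFB3 rose by 4.22, 4.69 and 4.33 log2 units (SE 0.34 each), and its receptor TGFBR1 by 2.30, 1.73 and 1.61. TLR2, a receptor of biglycan, rose by 2.61, 1.28 and 0.98, and EGFR, a receptor that decorin can bind, by 1.49, 2.30 and 2.24. TGFB1 was 0.55 higher at 1 week (adjusted p = 0.0372), at -0.03 at 4 weeks and 0.65 lower, at -0.65, at 6 weeks (adjusted p = 0.0191). INSR fell by 1.61, 0.89 and 1.33, and IGF1R, which decorin also binds, fell by 1.61, 0.99 and 1.55. None of the 11 was called in RM, where only 0.509%, 0.616% and 0.0739% of all probe sets were called higher.

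Of 6 tested proteases and inhibitors that act on SLRPs or on their proteases, 4, 5 and 4 were called higher in IC and none lower. Of all probe sets 26.0%, 25.3% and 21.0% were called higher and 28.2%, 29.1% and 26.0% lower. MMP2 rose by 3.18, 3.52 and 3.05 log2 units, MMP14 by 1.32, 1.75 and 1.40, TIMP1 by 3.04, 2.35 and 1.80 and TIMP2 by 1.84, 3.00 and 2.49. Other proteoglycans numbered 6 tested, with 4 called higher at each stage, against the same shares of all probe sets. VCAN (versican) rose by 4.08, 4.76 and 3.95 (SE 0.28 each), SRGN (serglycin, of blood cells) by 2.65, 2.19 and 1.92, SDC2 by 1.62, 2.79 and 1.95, and SPOCK3 by 1.33, 1.74 and 1.34. SDC4 was lower at 1 week by 0.66, at -0.66 (adjusted p = 0.00759), and SDC1 at 4 weeks was at -0.32 (adjusted p = 0.0338).

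Fibroblast and macrophage markers were mostly higher in IC as well, and cardiomyocyte markers mostly lower at 1 and 4 weeks. In IC 9, 10 and 10 of 11 fibroblast markers and 8 of 8 macrophage markers at each stage were called higher. Of all probe sets 26.0%, 25.3% and 21.0% were. COL1A2 and COL3A1 among the fibroblast markers are also on the collagen list. Of 15 cardiomyocyte markers 10, 12 and 6 were called lower, where 28.2%, 29.1% and 26.0% of all probe sets were, and 1 was called higher at 1 week. CDH11, a cadherin of activated fibroblasts, rose by 4.38, 4.54 and 3.60 log2 units, POSTN by 4.60, 4.37 and 3.96, and THY1 by 3.73, 4.08 and 3.94. CDH11 also rose in RM at 1 week by 0.96 (adjusted p = 0.0497). That was the only call in RM among the 11, where 0.509%, 0.616% and 0.0739% of all probe sets were called higher. Besides the probe sets of these 11, 6 fibroblast markers of the list have a probe set by the authors' match. COL1A2 and COL3A1 thus appear again, and the platform's COL3A1 probe set was not called in IC. Of the tested probe sets named in that way, 98.8% were called in IC at some stage, so a call there was likely from the naming alone. PDGFRA, COL1A1, COL1A2, COL3A1 and FBLN2 were called higher in IC at each stage and not called in RM. DDR2, a collagen receptor of fibroblasts, went the other way, at 5.79 to 6.01 in CM and 3.39 to 4.51 in IC. Its log2 differences from CM were -1.60, -2.25 and -1.72 in IC (adjusted p = 2.21e-06, 4.95e-08 and 2.26e-06), and -1.30 and -1.21 in RM at 1 and 4 weeks (adjusted p = 0.00497 and 0.00751). Of 6 smooth muscle and myofibroblast markers 3 were higher and 2 lower at each stage, ACTA2 rising by 2.77, 2.84 and 2.35, and in RM at 4 weeks by 0.86 (adjusted p = 0.0218). Endothelial markers had 1, 0 and 0 of 8 higher and 2, 2 and 3 lower, which is near the 28.2%, 29.1% and 26.0% of all probe sets called lower, and so are the 2 of 6 lower among smooth muscle markers. The endothelial median was -0.25, -0.29 and -0.38. No lymphocyte marker and no cartilage or tendon marker passed the filter, and the only skeletal muscle marker that did was CKM, which the heart also expresses. The share of the SLRP increase that goes with more fibroblasts was not tested.

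The genes whose 6 mean differences from CM (RM and IC at the 3 stages) were most like those of each member were found by the smallest root mean square (RMS) difference, in log2 units. BGN was closest to OLFML3 (0.18), VCAN (0.29) and FN1 (0.34), all matrix genes. LUM was closest to FKBP14 (0.17), a chaperone of collagen folding, then to CCDC144B (0.18) and GPM6A (0.22). FMOD and KERA had no neighbour as close as those of the other members. The nearest to FMOD were SFRP1 (0.61), AEBP1 (0.69) and SPP1 (0.79). For KERA they were CCDC80 (0.66), COL12A1 (0.85) and COL1A1 (0.87), and for DCN OR5D14 (0.10), NDRG1 (0.12) and EID1 (0.18). OLFML3, CCDC144B, GPM6A, COL12A1, COL1A1, OR5D14 and NDRG1 carry the authors' match. Within the family the nearest to DCN was TSKU (0.32), to BGN PRELP (0.52) and to LUM ASPN (0.49). These are descriptions over 6 means that share the control arrays.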

How the data were processed

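RNA of 21 pig myocardial samples was hybridized to Affymetrix Porcine Genome arrays, 1 array per sample. The authors made the deposited log2 values by RMA, which corrects background, normalizes quantiles and summarizes probes, and these log2 values were used as deposited. Array medians ran from 2.95 to 3.12. Precision is limited by 3 arrays a group, and an array carries no read depth. Probe sets above 3 in at least 10 arrays (12180 of 24123) entered a linear model of 7 group means (limma 3.58.1, R 4.3.3; 14 residual and 3.98 prior degrees of freedom). IC against RM used 18 arrays with the pig as a block (6 and 4.29), since the labels give both arrays of a pig its number. Within-group residuals of the same pig correlated at 0.0714 to 0.491, in each pig above other pigs of its stage. P values were adjusted by Benjamini-Hochberg over all probe sets of a comparison. Fold changes are 2 to the power of the log2 difference. The scripts were tested on simulated data. The authors' tables of fold changes and p values were used for names only.

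Symbols came from the platform, otherwise from the authors' human match. Lists beyond the SLRP family used the platform's names, and the probe set of highest mean stood for a gene. The members and lists were chosen with earlier results of these data known. Named genes were all SLRPs measured, up to 4 of each list with the largest mean absolute difference of IC from CM, and the 3 most like each member. COL3A1, TGFB1, INSR, IGF1R, SDC1, SDC4, MYH7, COMP, SOX9, ACAN and the fibroblast markers by the authors' match lie outside this rule where named, after their values were seen. Alternatives were another filter or none, median, ribosomal and cyclic loess scaling, array weights, a mean-variance trend, only the groups compared, the mean of a gene's probe sets, the pig as a random or no block, a stricter threshold and leaving out each array.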

Additional observations from a re-analysis of the deposited data

How the results depend on the processing

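The 5 calls in IC against CM and the 5 in IC against RM held at every stage under all alternatives run, including each array left out, and the average over the 3 stages kept 5 calls in IC and 0 in RM. FMOD and KERA were named from tables of called probe sets, and KERA passed the filter only through its IC arrays and 1 RM array. The calls free of both limits are those of DCN, BGN and LUM. The counts that moved were those at 0. RM against CM at 1 week ranged from 0 to 1 over the arrays left out, the 1 being LUM without the control of pig 33. Calls between stages within IC ranged from 0 to 1 over the arrays left out (1 without that control and 1 without the IC array of pig 22) and were 3 with array weights. Calls between stages within RM were 1 with array weights, and those of the IC minus RM difference between stages were 4 with array weights. The cause was not tested.

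Values that changed sign were all uncalled. BGN from 1 to 6 weeks (IC minus RM) was -0.23 with array weights and ranged from -0.20 to 0.26 over the arrays left out. LUM in RM ranged from -0.42 to 0.29 at 4 weeks and from -0.37 to 0.34 at 6 weeks, FMOD in RM at 6 weeks from -0.05 to 0.54, and KERA in RM at 1 week from -0.13 to 1.83. Over all comparisons of the 10 SLRPs tested, 13 values became called, 9 with array weights, 3 without the control of pig 33 and 1 without the IC array of pig 22, and 10 lost a call, all for PRELP between stages of IC. A random replicate block for the pig, or no replicate block for IC against RM, changed no call of the 5 members. Centring on ribosomal protein genes moved the median of all genes in IC by -0.18, -0.28 and -0.17, and centring on the median moved it by -0.11 at 1 week. No member changed direction in IC. Depth in the sense of signal limits KERA and the lower values of FMOD, whose control levels are near or under the filter level of 3.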

Other observations

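COMP, a cartilage and tendon matrix protein outside the family that binds collagen, did not pass the filter, since it was above 3 on fewer than 10 arrays, and it was singled out after its values were seen. It read 1.23 to 1.89 in CM and 1.34 to 2.03 in RM. In IC it read 2.87 to 4.74 at 1 week, 7.36 to 8.97 at 4 weeks and 5.45 to 8.48 at 6 weeks, so the arrays of 4 and 6 weeks lay above all others. Other markers of cartilage stayed low on all arrays, SOX9 between 1.00 and 1.68 and ACAN between 2.05 and 3.03.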
